A study of Mus musculus with 3 samples.

Results

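Pre-mRNA splicing genes were examined for Setd1a binding in cultured quiescent adult neural stem cells (NSCs). The genes comprised every protein-coding gene of chromosomes 1 to 19 in GENCODE M21 whose symbol starts with Srsf, Snrp, Sf3a, Sf3b, Hnrnp, Prpf, Lsm, U2af or Rbm, with a digit required after Srsf, Sf3a, Sf3b, Prpf, Lsm and Rbm. This rule took 115 of 20807 protein-coding genes, which are called splicing genes here. A gene was counted as carrying a peak when a Setd1a peak came to 1000 bp or less from a transcription start site (TSS) annotated for it. The 115 genes had 753 distinct TSSs.

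The peaks came from CUT&RUN, in which an antibody on chromatin guides a nuclease that releases the DNA next to the bound protein. The cells were taken from the dentate gyrus of Hopx-CreERT2::Setd1afl/fl::H2B-GFP mice aged 7 to 8 weeks, expanded with FGF2 and EGF, and then held in quiescence medium with BMP4 and FGF2 and without EGF until day 5. All 3 libraries are labelled WT, although the mice carried a floxed Setd1a allele. The study's supplement describes lentivirus for GFP alone or for Cre-GFP being added to such cultures before the day 5 harvest, and its main text calls the cells with GFP alone WT for the RNA-seq. There were 2 libraries with a Setd1a antibody, from independent cultures, and 1 with rabbit IgG. The analysed list held 6969 peaks found in both Setd1a libraries, as start and end positions in mm10. It gives no height and no value per library, so the sequencing depth behind a peak and the spread between cultures are unknown, and no difference below was tested over samples. The list holds no expression values, so the labelled cell type was not checked against its markers. A gene without a peak is one that is absent from this list at the depth of these libraries. Confidence intervals are 95% Wilson intervals and cover counting over genes only.

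Setd1a is the catalytic subunit of a COMPASS complex that methylates histone H3 at lysine 4, a mark of active promoters, and reaches many of them through a subunit that binds unmethylated CpG. Introns are removed by the spliceosome, which assembles from small nuclear ribonucleoproteins (snRNPs), each an RNA with a ring of Sm or LSm proteins and particle-specific proteins. SR proteins mostly favour the use of the exons they bind, hnRNP proteins coat the nascent transcript and often repress splice sites, and together they set much of alternative splicing.

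The promoters below show the DNA in which the widest peaks lay. For each of 7 role groups the 150 bases just upstream of a TSS are given, for the gene whose peak over a TSS was the widest with at least 100 bases free of annotated untranslated sequence. All lie inside the gene's Setd1a peak, are read 5′ to 3′ toward the gene in GRCm38 (mm10), and carry motif matches in capitals. The motifs searched on both strands were ETS (CCGGAAG), SP/KLF (GGGCGG), NF-Y (CCAAT), NRF1 (GCGCATGC), CRE (TGACGTCA), YY1 (ATGGCGG) and the TATA box (TATAAA). They belong, in order, to U2af2, Rbm14, Snrpd3, Hnrnpa1, Srsf4, Lsm14a and Sf3b2.
U2af2, chr7:5061993-5062142, plus strand: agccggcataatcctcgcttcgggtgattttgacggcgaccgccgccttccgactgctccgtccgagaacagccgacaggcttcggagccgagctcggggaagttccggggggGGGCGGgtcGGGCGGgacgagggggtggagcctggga
Rbm14, chr19:4811635-4811784, minus strand: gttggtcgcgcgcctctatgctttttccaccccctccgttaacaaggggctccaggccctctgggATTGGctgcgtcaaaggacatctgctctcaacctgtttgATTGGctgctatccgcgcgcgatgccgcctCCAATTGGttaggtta
Snrpd3, chr10:75517401-75517550, plus strand: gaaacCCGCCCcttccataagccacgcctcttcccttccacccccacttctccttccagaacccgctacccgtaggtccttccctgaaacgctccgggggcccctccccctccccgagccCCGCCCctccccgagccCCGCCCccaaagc
Hnrnpa1, chr15:103240282-103240431, plus strand: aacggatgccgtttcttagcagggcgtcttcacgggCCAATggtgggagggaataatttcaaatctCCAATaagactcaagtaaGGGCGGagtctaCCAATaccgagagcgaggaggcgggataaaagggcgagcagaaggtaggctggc
Srsf4, chr4:131873467-131873616, plus strand: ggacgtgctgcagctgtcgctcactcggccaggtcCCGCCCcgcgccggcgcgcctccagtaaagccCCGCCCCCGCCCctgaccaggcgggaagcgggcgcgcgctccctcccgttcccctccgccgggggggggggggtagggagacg
Lsm14a, chr7:34389688-34389837, minus strand: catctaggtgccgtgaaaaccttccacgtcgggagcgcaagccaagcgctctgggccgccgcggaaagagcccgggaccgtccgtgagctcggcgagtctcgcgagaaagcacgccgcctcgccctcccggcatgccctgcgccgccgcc
Sf3b2, chr19:5295456-5295605, minus strand: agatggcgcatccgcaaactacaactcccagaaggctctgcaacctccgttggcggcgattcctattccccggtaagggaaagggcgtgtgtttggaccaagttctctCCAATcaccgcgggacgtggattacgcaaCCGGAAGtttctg
No TATA box match stood in any of the 7. The Rbm14 stretch held 4 NF-Y matches, the last 2 overlapping on opposite strands, and the Hnrnpa1 stretch held 3. Snrpd3 and Srsf4 each carried 3 SP/KLF matches, Sf3b2 carried 1 ETS match beside 1 NF-Y match, and Lsm14a carried none of the motifs. G+C content ran from 53.3% in Hnrnpa1, with 9 CpG dinucleotides, to 79.3% in Srsf4, with 20. A match is a description of the letters and not evidence of a bound factor.

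Of the 115 splicing genes, 55 carried a Setd1a peak, a share of 47.8% (38.9% to 56.9%). The share over all protein-coding genes was 22.5%, or 4682 of 20807. For 50 of the 55 the peak lay over an annotated TSS. The 55 genes had 55 different nearest peaks, so no peak was counted for more than 1 of them. Splicing genes mostly have CpG-rich promoters, defined here by an observed to expected CpG ratio of at least 0.6 over the 500 bp on each side of the gene's 5′ end. Among the CpG-rich promoters, 49 of 99 splicing genes carried a peak (49.5%, 39.9% to 59.2%), against 40.1% of all protein-coding genes of that kind. The interval takes in this background, so the share is not clear of it within CpG-rich promoters, and the role of CpG content in it was not tested.

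The share differed widely between role groups. The hnRNP genes and the SR genes together had a peak at 25 of 30 genes (83.3%, 66.4% to 92.7%). The Prpf and LSm genes had one at 6 of 26 (23.1%, 11.0% to 42.1%), close to the share over all protein-coding genes. The separation also stood among CpG-rich promoters, where 22 of 26 hnRNP and SR genes (84.6%) and 4 of 24 Prpf and LSm genes (16.7%) carried a peak. All protein-coding genes with such promoters had 40.1%, so against like promoters the Prpf and LSm share was the lower one. These pools joined role groups with high shares and role groups with low shares, and left out the U2AF, Sm core, U1, U2 and Rbm genes. Their separation and intervals thus partly restate how the pools were joined. The groups were compared after earlier results of these data were known, and the difference between them was not tested.

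**Figure D1:**
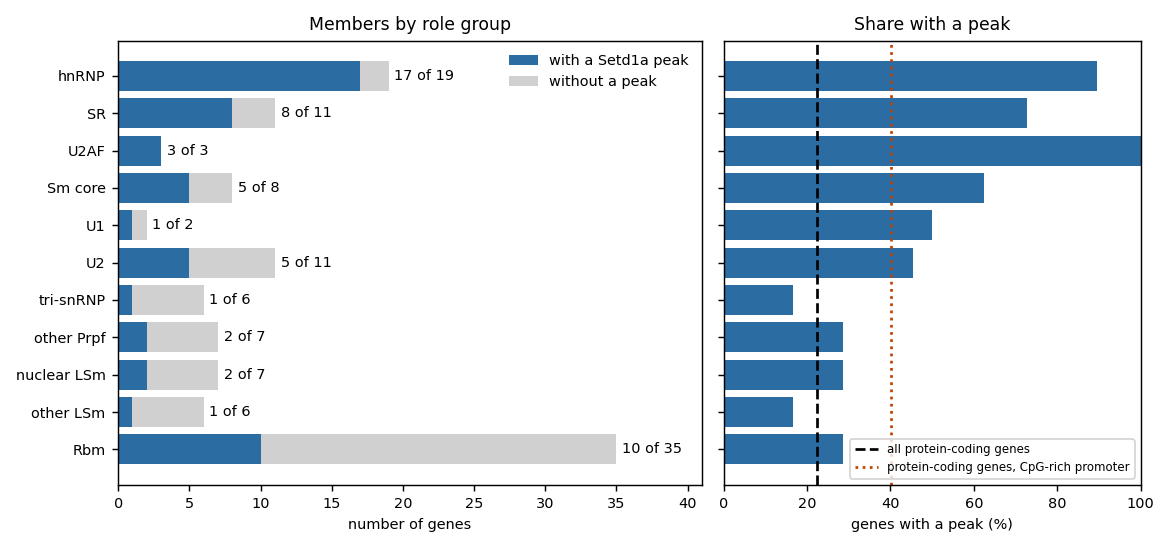
Splicing genes with a Setd1a peak by role group. The left panel gives the number of genes with (blue) and without (grey) a peak, and the right panel the share with a peak in percent, beside the shares over all protein-coding genes (dashed line, 22.5%) and over those with a CpG-rich promoter (dotted line, 40.1%). hnRNP, SR and U2AF genes stand highest, and the Rbm, LSm and Prpf genes lie between 16.7% and 28.6%.

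Among the hnRNP genes, whose products bind nascent transcripts, 17 of 19 carried a peak (89.5%, 68.6% to 97.1%). They were Hnrnpa0, Hnrnpa1, Hnrnpa2b1, Hnrnpa3, Hnrnpc, Hnrnpd, Hnrnpdl, Hnrnpf, Hnrnph1, Hnrnph3, Hnrnpk, Hnrnpl, Hnrnpll, Hnrnpm, Hnrnpr, Hnrnpul1 and Hnrnpul2. The set spans proteins of different RNA preference, among them hnRNP C for uridine tracts, hnRNP K for cytosine-rich sequence, hnRNP F, H1 and H3 for guanine runs, and hnRNP L for CA repeats. Hnrnph3 had the widest peak of the group, 1406 bp at chr10:63022825-63024230. Hnrnpa1, encoding a splicing repressor that competes with SR proteins, followed with 1190 bp at chr15:103239706-103240895. Hnrnpul1, a relative of Hnrnpu, had 1176 bp at chr7:25754479-25755654. All 3 of these peaks lay over a TSS. The narrowest belonged to Hnrnpr, with 309 bp that ended 99 bp upstream of its TSS. The median width over the 17 was 766 bp, against 546 bp over all protein-coding genes with a peak.

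All 4 splicing genes with more than 1 peak in reach were hnRNP genes. Hnrnpa2b1 encodes an hnRNP that also takes part in mRNA transport. Its peaks of 1107 bp (chr6:51469362-51470468, over the TSS) and 499 bp (chr6:51470783-51471281, 889 bp upstream of it) stood side by side. At Hnrnpdl, a paralogue of Hnrnpd, they measured 1097 bp (chr5:100039166-100040262) and 335 bp (chr5:100038544-100038878), each over an annotated TSS. Hnrnpf had 766 bp (chr6:117906709-117907474, over a TSS) and 424 bp (chr6:117905977-117906400, 390 bp from a TSS). Hnrnpk had 457 bp (chr13:58402039-58402495, over a TSS) and 317 bp (chr13:58402886-58403202, 141 bp from a TSS). Over all splicing genes with a peak, 7.27% had several in reach, beside 6.92% of all protein-coding genes with a peak. The hnRNP genes had a median of 9 TSSs, against 5 over all splicing genes, and the part of TSS number in this was not tested.

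The hnRNP genes without a peak were Hnrnpab, of the same A/B family as Hnrnpa1, and Hnrnpu, which encodes an abundant nuclear matrix protein. The nearest peak to a TSS of Hnrnpu was 4872 bp downstream, 994 bp wide (chr1:178318306-178319299), and lay at the start of the neighbouring Cox20 and B230369F24Rik. Both genes have CpG-rich promoters, as has Srsf3, an SR gene without a peak. Their upstream sequences are set here beside that of Hnrnpa2b1, whose promoter lay in a peak, as examples of CpG-rich promoters absent from the list. These 4 were chosen after the values were seen, and Srsf12, also without a peak, had a CpG ratio of 0.576, under the limit of 0.6.
Hnrnpa2b1, chr6:51469895-51470044, minus strand: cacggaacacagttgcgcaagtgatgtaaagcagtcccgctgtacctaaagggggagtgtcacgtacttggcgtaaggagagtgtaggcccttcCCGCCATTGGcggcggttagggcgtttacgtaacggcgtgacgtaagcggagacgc
Hnrnpu, chr1:178337798-178337947, minus strand: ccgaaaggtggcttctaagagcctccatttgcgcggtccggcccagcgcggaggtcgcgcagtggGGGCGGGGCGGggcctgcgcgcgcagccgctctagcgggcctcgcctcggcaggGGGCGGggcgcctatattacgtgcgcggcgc
Hnrnpab, chr11:51606848-51606997, minus strand: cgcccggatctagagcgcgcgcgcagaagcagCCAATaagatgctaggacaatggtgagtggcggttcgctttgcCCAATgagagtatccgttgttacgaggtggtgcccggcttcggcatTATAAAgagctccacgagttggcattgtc
Srsf3, chr17:29032478-29032627, plus strand: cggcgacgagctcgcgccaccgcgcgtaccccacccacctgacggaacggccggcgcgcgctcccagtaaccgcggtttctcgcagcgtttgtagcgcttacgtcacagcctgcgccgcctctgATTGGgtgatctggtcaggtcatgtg
The Hnrnpu stretch, with 23 CpG dinucleotides and 75.3% G+C, was richer in both than that of Hnrnpa2b1, with 15 and 58%. So was that of Srsf3, with 22 and 67.3%, whereas that of Hnrnpab, with 13 and 56%, was poorer in both. Hnrnpu held 3 SP/KLF matches. Hnrnpab held 2 NF-Y matches and a TATA box match, Srsf3 held 1 NF-Y match, and Hnrnpa2b1 held a YY1 and an NF-Y match that overlap.

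SR genes carried a peak at 8 of 11 (72.7%, 43.4% to 90.3%), beside 22.5% of all protein-coding genes. They were Srsf1, Srsf2, Srsf4, Srsf5, Srsf6, Srsf7, Srsf10 and Srsf11. Srsf4 had the widest at 1057 bp, followed by Srsf6 at 881 bp, and Srsf1, the prototype SR gene, had 650 bp. Srsf7 had the narrowest peak of all splicing genes, 238 bp at chr17:80206995-80207232, and it began 71 bp past the TSS. Srsf11 had 294 bp at chr3:158036599-158036892, over its TSS. At Srsf2, whose protein marks nuclear speckles, the 500 bp peak ended 58 bp upstream of the TSS. Srsf5 carried a further peak inside the gene, 288 bp wide and 1029 bp from a TSS (chr12:80947405-80947692), so just beyond the window. The SR genes without a peak were Srsf3, Srsf9 and Srsf12.

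All 3 U2AF genes, whose products recognise the end of the intron, carried a peak (interval 43.9% to 100%). All protein-coding genes had 22.5%, and those with CpG-rich promoters 40.1%. U2af2, for the large subunit that binds the polypyrimidine tract, had 1720 bp at chr7:5060990-5062709. U2af1l4, a relative of the small subunit gene, had 1173 bp at chr7:30562337-30563509, and U2af1 itself had 670 bp. Each peak lay over a TSS. When a peak was counted only for the gene of its nearest TSS among all annotated genes, U2af1 alone of the 3 kept its peak, and the SR genes with a peak fell from 8 to 5. U2af1l4 has a TSS at the same position as Gm49396 (0 bp), so its loss need not mean that another gene lay nearer.

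The snRNP proteins were divided. Of the 8 Sm core genes, which encode the ring shared by the major snRNPs, Snrpd1, Snrpd2, Snrpd3, Snrpf and Snrpg carried a peak, and Snrpb, Snrpe and Snrpn did not. That was 62.5% (30.6% to 86.3%), beside 22.5% of all protein-coding genes and 40.1% of those with CpG-rich promoters. The widest was that of Snrpd3, 1230 bp at chr10:75516948-75518177, and the narrowest that of Snrpg, 366 bp. Snrpn is an imprinted relative of Snrpb that is expressed mainly in brain. Of the U1 genes, Snrpa had a peak of 732 bp over its TSS (chr7:27195836-27196567) and Snrpc had none. For U2, which pairs with the branch site, 5 of 11 genes carried a peak (45.5%, 21.3% to 72.0%), an interval that takes in the 22.5%. All 5 encode SF3A or SF3B subunits, namely Sf3a1, Sf3a2, Sf3b1, Sf3b2 and Sf3b4. Sf3a2 had 1400 bp (chr10:80798033-80799432), Sf3b2 had 844 bp, and Sf3b1, whose protein clamps the branch-site helix, had 599 bp. Snrpa1, Snrpb2, Sf3a3, Sf3b3, Sf3b5 and Sf3b6 had no peak.

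In the role group named after the tri-snRNP, the particle of U4, U6 and U5 that completes the spliceosome, 1 of 6 genes was counted. That gene, Prpf6, lay just inside the window, with a peak of 253 bp (chr2:181592710-181592962) that began 842 bp past the TSS. This peak lay over a TSS of Zfp512b, on the opposite strand and 890 bp from that of Prpf6. Prpf6 was not counted at a window of 500 bp, and no other splicing gene depended on the step from 100 to 1000 bp. Prpf3, Prpf4, Prpf8, Prpf31 and Prpf38a had no peak, Prpf8 being the core protein around the catalytic centre. Placing Prpf38a in this group was a choice made here and does not make it a stable part of the particle. Near Prpf31 a peak of 1177 bp lay 8633 bp downstream of a TSS (chr7:3644728-3645904), at the start of Cnot3 and Gm15927. Of the other Prpf genes, 2 of 7 carried a peak. Among them Prpf19, a ubiquitin ligase of the spliceosome, had 445 bp. Prpf4b, Prpf18, Prpf38b, Prpf39 and Prpf40b had none.

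Of the nuclear LSm genes, whose ring binds the end of U6 RNA, Lsm2 (525 bp) and Lsm4 (432 bp) carried a peak, and Lsm3, Lsm5, Lsm6, Lsm7 and Lsm8 did not. Among the other LSm genes, Lsm14a, which encodes a P-body protein, carried 867 bp, and Lsm1, Lsm10, Lsm11, Lsm12 and Lsm14b had no peak. Lsm10 belongs to the U7 particle of histone mRNA processing, and a peak of 610 bp lay 5760 bp downstream of its TSS (chr4:126102420-126103029), near a TSS of Stk40. A peak of 671 bp lay 9861 bp upstream of Lsm5 (chr6:56714571-56715241), at Avl9. Of all splicing genes, Lsm8 had its nearest peak farthest away, at 853166 bp.

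The Rbm genes share only an RNA-binding motif and a naming scheme, and 10 of 35 carried a peak (28.6%, 16.3% to 45.1%), close to the 22.5% of all protein-coding genes. Among CpG-rich promoters, 9 of 29 Rbm genes did (31.0%), beside 40.1% of all protein-coding genes of that kind. The 4 widest of these peaks were those of Rbm14, a paraspeckle protein (1502 bp, chr19:4810491-4811992), Rbm15, a partner of the m6A methyltransferase (1184 bp, chr3:107332823-107334006), Rbm39, a U2AF-like splicing factor (1167 bp), and Rbm4, a regulator of alternative exons (1111 bp). Rbm15b, the relative of Rbm15, had 747 bp, Rbm12 had 663 bp (chr2:156111303-156111965), Rbm8a of the exon junction complex had 556 bp, Rbm27 had 551 bp, Rbm22 of the catalytic spliceosome had 517 bp and Rbm25 had 476 bp. Every one of the 10 lay over a TSS. No peak was listed for Rbm4b, Rbm5, Rbm6, Rbm7, Rbm8a2, Rbm11, Rbm12b1, Rbm12b2, Rbm17, Rbm18, Rbm19, Rbm20, Rbm24, Rbm26, Rbm28, Rbm33, Rbm34, Rbm38, Rbm42, Rbm43, Rbm44, Rbm45, Rbm46, Rbm47 and Rbm48. Rbm12b1 and Rbm12b2 are near-identical copies, and the mapping kept only uniquely placed reads, whose effect at these genes was not tested. Without the Rbm genes, 56.3% of the splicing genes carried a peak.

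A list of splicing genes known for expression in few tissues held Rbm11, Rbm20, Rbm24, Rbm44, Rbm46, Rbm47, Srsf12 and Snrpn, and 0 of 8 were counted (upper Wilson bound 32.4%, which takes in the 22.5% of all protein-coding genes). Only 4 of the 8 have a CpG-rich promoter. The tissues differ between these genes, with brain among them for Snrpn, and whether any was expressed in these neural cells was not examined. Rbm20, the regulator of titin splicing in heart, had a peak of 342 bp inside the gene, 9665 bp from a TSS (chr19:53852875-53853216). Rbm33, not of this list, was the nearest to the window among genes without a peak, with 426 bp inside the gene and 3164 bp past a TSS (chr5:28413825-28414250). Peaks within the gene but beyond the promoter window were found at 3 splicing genes (2.61%), against 5.68% of all protein-coding genes.

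**Figure D2:**
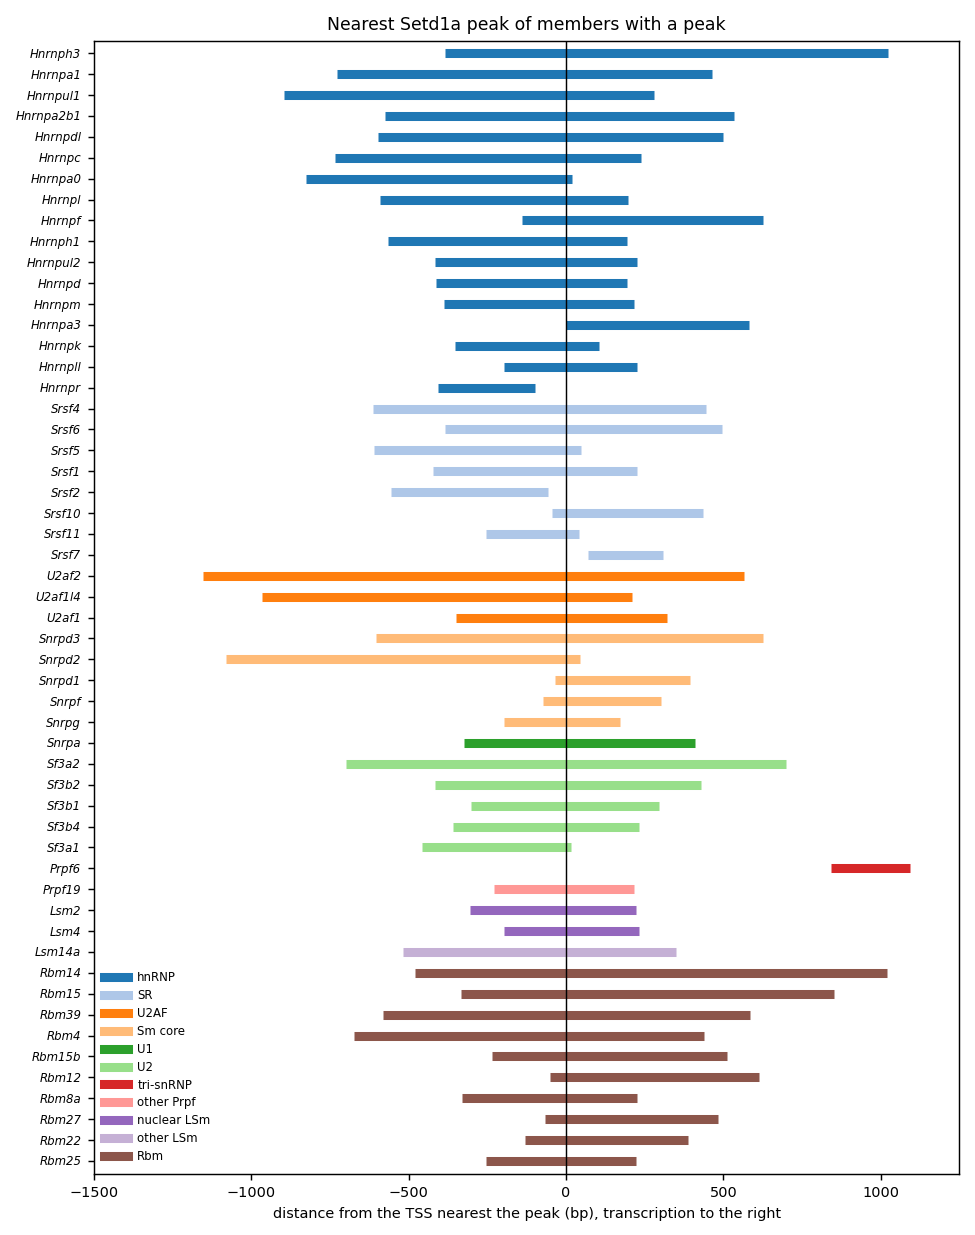
The nearest Setd1a peak of 54 of the 55 splicing genes with a peak, drawn to scale against the TSS nearest to it (x axis in bp, transcription to the right), 1 bar per gene, coloured by role group. Nearly all bars cross the TSS, Prpf6 lies apart at 842 bp, and most hnRNP bars reach farther upstream than downstream.

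Peaks of splicing genes sat close to the TSS. Within 100 bp of a TSS, 54 of the 115 genes (47.0%) had a peak, and widening the window to 3000 bp added only Prpf6. Over all protein-coding genes the share grew from 19.6% to 24.1% over the same step. Of the 55 peaks, 90.9% covered a TSS, against 76.3% of those at all protein-coding genes with a peak. The midpoint lay upstream of the TSS for 33 of 55 (60%), beside 54.8% over all protein-coding genes with a peak. Among hnRNP genes the midpoint was upstream in 13 of 17, with a median of -110 bp, whereas among Rbm genes it was upstream in 3 of 10, with a median of 133.5 bp downstream. These positions rest on which annotated TSS is nearest and were not tested.

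**Figure D3:**
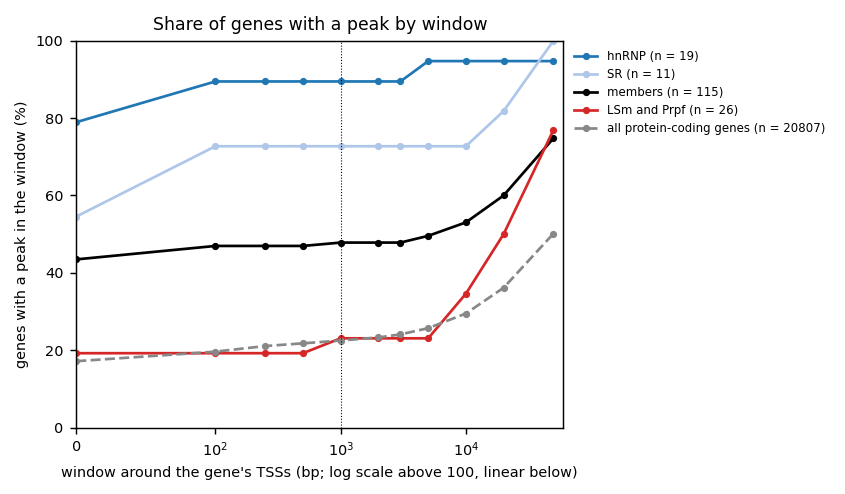
Share of genes with a Setd1a peak (y axis, percent) as the window around their TSSs widens (x axis in bp, linear below 100 and logarithmic above), for hnRNP genes, SR genes, all 115 splicing genes, LSm and Prpf genes, and all protein-coding genes. The dotted line marks 1000 bp. The hnRNP and SR lines are already at 89.5% and 72.7% by 100 bp, and the LSm and Prpf line leaves the background only beyond 5000 bp.

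Of the 60 splicing genes without a peak, the nearest peak lay a median of 49058.5 bp from a TSS, against 89545 bp for all protein-coding genes without a peak. Only 6 of the 60 had a peak within 10000 bp, namely Rbm33, Hnrnpu, Lsm10, Prpf31, Rbm20 and Lsm5. In 4 of these 6 the peak stood at the TSS of another gene, and in Rbm33 and Rbm20 it lay within the gene.

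Peaks at the 115 splicing genes were wide relative to those at all protein-coding genes. Their median width was 663 bp (quartiles 489.5 and 1102 bp), and that over all protein-coding genes with a peak was 546 bp (quartiles 376 and 780.5 bp). The splicing genes outside the name rule, described below, had a median of 561 bp, so the trait did not extend to them. Of the 55, 16 reached 1000 bp (29.1%), beside 11.1% over all protein-coding genes with a peak. These wide peaks were spread over roles, with 5 at hnRNP genes, 4 at Rbm genes, and the others at genes of further groups. The ranges of hnRNP (309 to 1406 bp), SR (238 to 1057 bp) and Rbm (476 to 1502 bp) genes overlapped broadly. How the intervals of the libraries were joined is not stated, and a width is not a height.

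**Figure D4:**
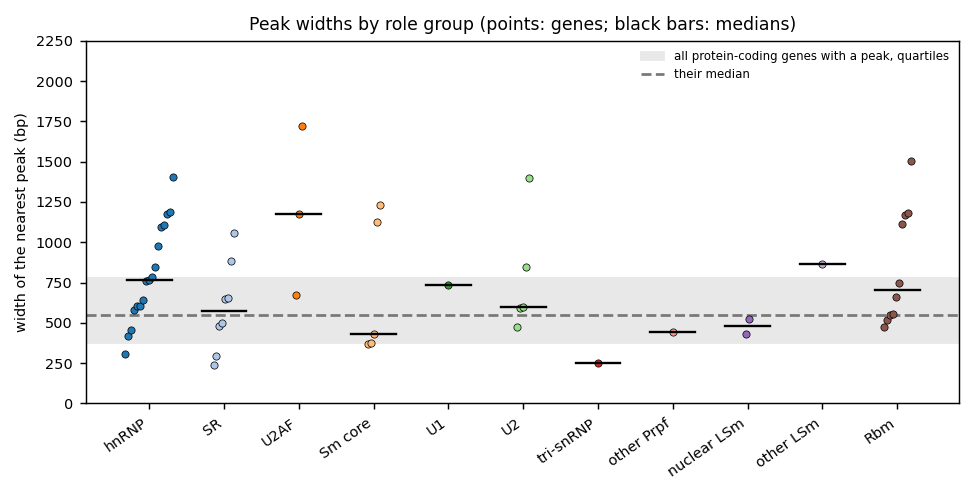
Width in bp of the nearest Setd1a peak (y axis) for 54 of the 55 splicing genes with a peak, by role group (points, genes; black bars, medians). The grey band and dashed line are the quartiles (376 and 780.5 bp) and median (546 bp) over all protein-coding genes with a peak. The medians of hnRNP (766 bp) and Rbm (705 bp) genes lie above that line, and that of Sm core genes (429 bp) below it.

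Many of the peaks covered promoters shared with a neighbour, so that the bound gene cannot be told apart from position alone. Of the 55 nearest peaks, 20 (36.4%) were also within 1000 bp of a TSS of another protein-coding gene, beside 30.1% of all protein-coding genes with a peak. The closest TSS pairs were those of U2af1l4 and Gm49396 (0 bp, same strand), Rbm12 and Cpne1 (2 bp, same strand), Sf3a2 and Plekhj1 (4 bp, opposite strands), Rbm14 and Gm21992 (4 bp, same strand), and Snrpa and BC024978 (21 bp, opposite strands). The peak of U2af1l4 also reached Psenen, a subunit of gamma-secretase. Further opposite-strand partners included Lrrc40 at Srsf11 (23 bp), Gucd1 at Snrpd3 (42 bp), Rmi1 at Hnrnpk (51 bp), Ccdc157 at Sf3a1 (57 bp), Pbld2 at Hnrnph3 (98 bp), 4930524J08Rik at Hnrnpd (123 bp) and Ttc39d at Srsf7 (153 bp). Wider gaps separated Mfsd11 from Srsf2 (201 bp), Enoph1 from Hnrnpdl (321 bp), Qpctl from Snrpd2 (431 bp), Ttc9c from Hnrnpul2 (677 bp) and Zfp512b from Prpf6 (890 bp). At Hnrnpa2b1 the partner was Cbx3 (466 bp) and at Hnrnpa1 it was Cbx5 (616 bp), both genes of heterochromatin protein 1.

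Head-to-head promoters, those with another protein-coding gene starting on the opposite strand within 1000 bp, were frequent among splicing genes. There were 29 of 115 (25.2%), against 11.3% of all protein-coding genes. Of these 29, 18 carried a peak (62.1%), and of the 86 without such a partner 37 did (43.0%). The shares over all protein-coding genes were 50.8% and 18.9%. The median peak width of splicing genes was 914.5 bp with a partner and 656 bp without, beside 604 and 526 bp over all protein-coding genes. Those with a partner and no peak included Lsm1 (Bag4), Lsm3 (Xpc), Lsm7 (Sppl2b), Prpf4 (Cdc26), Prpf31 (Tfpt), Prpf38a (Orc1), Prpf40b (Fam186b), Rbm7 (Gm5617), Rbm18 (Mrrf) and Sf3b3 (Cog4). No hnRNP or SR gene was among these 11, while 7 of the 11 were Prpf or LSm genes. This split mostly restates the earlier counts, with 5 of 30 hnRNP and SR genes and 20 of 26 Prpf and LSm genes lacking a peak.

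Splicing genes also lie near one another in places. Within 200000 bp there were 10 pairs of their 5′ ends, and in 4 of them both genes carried a peak, in 2 neither did and in 4 only one did. Hnrnpd and Hnrnpdl, 60726 bp apart, Rbm4 and Rbm14 (17733 bp), Rbm12 and Rbm39 (68260 bp), and Hnrnpll and Srsf7 (144973 bp) each had peaks of their own. Rbm4b, the close copy of Rbm4 at 37404 bp, had none. Sf3a2 had a peak of 1400 bp where Lsm7, 57011 bp away, had none.

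The number of annotated start sites varied with the share of genes carrying a peak. Splicing genes had a median of 5 TSSs and all protein-coding genes 3, and hnRNP genes had 9. With 1 to 2 TSSs, 38.9% of splicing genes carried a peak, beside 10.4% of all protein-coding genes. With 10 or more the shares were 65% and 42.3%. The share of splicing genes was the higher one in each of the 4 ranges, also for 3 to 5 TSSs (39.6% and 23.6%) and for 6 to 9 (55.2% and 36.4%), and the part of TSS number in it was not tested.

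Every nearest peak of a splicing gene lay in CpG-rich DNA. All 55 of 55 intervals had an observed to expected CpG ratio of at least 0.6, with a median of 0.924 and a range from 0.631 to 1.21, beside 87.1% of those of all protein-coding genes with a peak. By the gene's 5′ end instead, 6 of the 55 were not CpG-rich, namely Hnrnpf, Hnrnpl, Hnrnpm, Lsm14a, Prpf6 and Rbm25. In each of these 6 the gene's 5′ end lay outside any peak. The closest peak edge was 5653 bp away for Hnrnpf, at its 424 bp peak, 3318 bp for Lsm14a and 1758 bp for Hnrnpl. It was 1054 bp away for Hnrnpm, 842 bp for Prpf6 and 763 bp for Rbm25. The first 4 had their peak only at a start site other than the gene's 5′ end. The share in the lowest range of CpG ratio, 45.5% of 11 splicing genes against 4.18% of all protein-coding genes, rests on 5 of these genes.

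**Figure D5:**
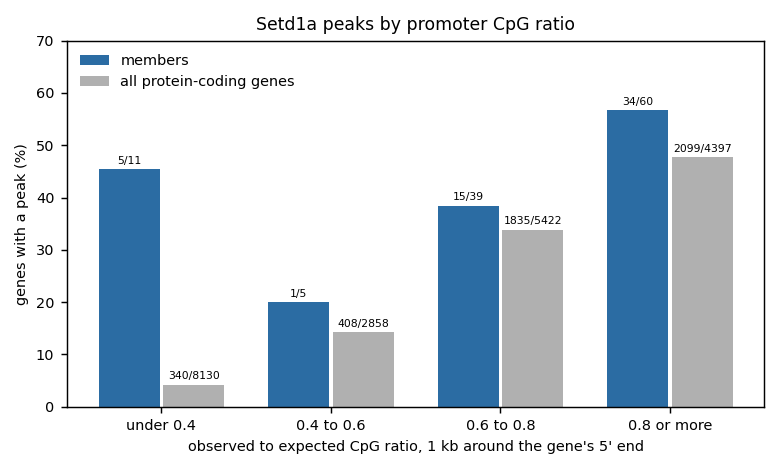
Share of genes with a Setd1a peak (y axis, percent) by observed to expected CpG ratio over the 500 bp on each side of the gene's 5′ end (x axis, 4 ranges), for splicing genes (blue) and all protein-coding genes (grey). The counts stand over the bars, and both shares are highest at a ratio of 0.8 or more, at 56.7% and 47.7%.

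Motif matches were counted in the promoters of splicing genes with and without a peak. The gene's 5′ end lay in a peak for 38 of the 55, so for the others the counted stretch was set at a 5′ end outside the peak. In the 250 bases before to 50 bases after the 5′ end, an ETS match stood in 20% of splicing genes with a peak and 23.3% of those without. All protein-coding genes had 11.0%, but those with a peak had 18.1%, close to the splicing genes. SP/KLF matches stood in 61.8% with a peak and 46.7% without. That first share was above the 43.7% of all protein-coding genes and below the 66.2% of those with a peak. NF-Y matches were about as frequent with a peak (47.3%) as without (46.7%), and all protein-coding genes had 38.6%, those with a peak 42.5%. YY1 matches stood in 12.7% and 10%, beside 4.83% of all protein-coding genes and 8.16% of those with a peak. TATA box matches stood in 7.27% and 15%, beside 12.7% and 5.55%. NRF1 matches (5.45% and 3.33%, beside 3.45% and 6.88%) and CRE matches (1.82% and 1.67%, beside 2.43% and 4.42%) were rarer.

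Spliceosome and splicing regulator genes outside the name rule were counted for comparison. Of 94 such genes, 41 carried a peak (43.6%), and 39 of 85 with a CpG-rich promoter did (45.9%, 35.7% to 56.4%). The shares over all protein-coding genes were 22.5% and 40.1%, and the latter lies within the interval of the CpG-rich genes. Those with a peak included Ewsr1 and Taf15, which encode hnRNP-like proteins, the SR-like Tra2b, the repressor Ptbp1, the speckle scaffolds Son, Srrm1 and Srrm2, and the branch-site factor Sf1. The median width over the 41 was 561 bp, near the 546 bp over all protein-coding genes with a peak. The widest were those of Sart3 (1742 bp), Srrm2 (1592 bp) and Acin1 (1456 bp). The list divided within families, since Tra2a, Ptbp2 and Ptbp3 had no peak. None was listed for the neuronal regulators Nova1, Nova2, Rbfox1, Rbfox3, Elavl2, Elavl3, Elavl4, Celf2 and Srrm4, for Snrnp200, Eftud2 and Snrnp40 of the U5 particle, or for Smn1 and its partners Gemin2, Gemin4, Gemin5, Gemin6 and Gemin7. At Gemin2 a peak lay 1139 bp from a TSS, so just beyond the window. Other U5 genes of the list, Ddx23 (426 bp) and Txnl4a (403 bp), had a peak over a TSS.

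Single genes were followed across definitions. Of the 55 genes, 34 kept a peak under each of the 8 alternative definitions of the window, the start sites, the assignment and the peaks, and the other 60 genes gained none under any. The stable genes included Hnrnpa1, Hnrnpa2b1, Hnrnpc, Srsf4, Srsf5, Srsf6, U2af1, Sf3b1, Snrpd3, Prpf19 and Lsm4. hnRNP genes with a peak numbered 14 to 17 and Rbm genes 8 to 10 across these definitions.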

How the data were processed

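The values analysed were the start and end positions of Setd1a peaks, deposited by the authors as 1 list for 2 Setd1a CUT&RUN libraries at day 5. The submitters' processing notes name bcl2fastq 2.17.1.14, Trimmomatic 0.32, Bowtie2 2.1.0, SAMtools 0.1.18 and MACS2 2.2.8. According to the methods, reads were mapped uniquely to mm10, filtered on mapping quality, peaks were called with default parameters and those found in both replicates were kept. How intervals were joined, and whether the 1 IgG library entered the calling, is not given in the sources used here. Depth is unknown.

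Positions were read as counted from 1 with both ends included, and set against GENCODE M21. Distance ran from the nearer peak edge to the TSS and was 0 where the peak covered it. Each gene was described by its nearest peak. The sequence was that of RefSeq's GRCm38.p6. The X chromosome and genes named Snrnp are outside the name rule. The genes, role groups and lists were chosen with earlier results of these data known. The rule was to name every gene, and to give full positions for the 10 widest and 3 narrowest peaks, all genes with several peaks, the 5 closest shared promoters (by gap), and genes without a peak that had one within 10000 bp. One of these genes, its sequence and its points in 2 figures are not reported here, and it stays in all counts. Sequences were skipped for Hnrnph3 and Sf3a2, which had 13 and 0 bases free of annotated untranslated sequence, and the next widest was used. Role counts under other definitions were added after the data were seen. No test was made, since genes are not replicates. The peak rule was tested on simulated intervals and gave the right call for 300 of 300 genes, those with the interval out of reach included. Each of these genes had 1 TSS far from any other, so genes with several or shared start sites were not covered. Computation used Python 3.11.15, numpy 2.4.6, pandas 2.3.3, pysam 0.24.0 and matplotlib 3.10.9.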

Additional observations from a re-analysis of the deposited data

How the results depend on the processing

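The count of splicing genes with a peak was 55 as reported, ran from 50 to 55 over the other windows, start sites, widths and merging, and was 40 (34.8%) when a peak counted only for the gene of its nearest TSS. The share over all protein-coding genes, 22.5% as reported, was 17.2% with the peak over a TSS, 21.8% within 500 bp, 24.1% within 3000 bp, 21.9% with TSSs of protein-coding transcripts, 20.6% with the gene's 5′ end alone, 18.3% by nearest TSS and 19.9% for peaks of at least 300 bp. Merging peaks within 1000 bp left both unchanged. The share of splicing genes was 56.3% without Rbm genes and 46.7% with the Snrnp genes added. Median width was 739.5 bp for peaks over a TSS, and shared promoters numbered 19 within 500 bp and 23 within 3000 bp. Counting by nearest TSS dropped 15 genes, among them Hnrnpd, Hnrnpk, Hnrnpl, Lsm2, Prpf6, Rbm12, Rbm14, Sf3a1, Snrpd2, Srsf1, Srsf11, Srsf2, U2af1l4 and U2af2. Of these, U2af1l4, Rbm12 and Rbm14 have a TSS 0, 2 and 4 bp from that of another gene. Requiring overlap with a TSS dropped Hnrnpa3, Hnrnpr, Prpf6, Srsf2 and Srsf7, and a width of at least 300 bp dropped Prpf6, Srsf11 and Srsf7. The 5′ end alone dropped Hnrnpf, Hnrnpl, Hnrnpm and Lsm14a. No paired analysis was possible because both replicates share 1 list, and no replicate could be left out. Depth limits what absence from the list means.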
